A study of Mus musculus with 5 samples.

Results

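The loci of 8 transcription factors that control blood stem and progenitor cells, Runx1, Gata2, Spi1, Cebpa, Tal1, Meis1, Gfi1 and Gfi1b, were examined for DNA methylation in LSK cells, the lineage-negative, Sca1-positive, Kit-positive fraction of mouse bone marrow. The genes were chosen by name, not by a measured value, but with earlier results of these data known. Each was read over a fixed window of the mm9 build around the gene. The windows were Runx1 (chr16:92598000-92829999), Gata2 (chr6:88138000-88160999), Spi1 (chr2:90905000-90958999), Cebpa (chr7:35900000-35944999), Tal1 (chr4:114725000-114747999), Meis1 (chr11:18775000-18924999), Gfi1 (chr5:108142000-108157999) and Gfi1b (chr2:28460000-28481999). Together they held 2119 of the 2328518 autosomal CpG positions listed in any library. A position here is 1 cytosine on 1 strand, so a CpG can give 2 positions. Of the 2119 positions, 263 were listed in all 5 libraries, compared with 280635 over all autosomes. The knock-in group (Idh1-R132H) had 3 libraries and the wild-type group had 2, all from mice of a mixed 129Ola and C57Bl/6J background. The labels give no age, do not say which promoter or Cre line drives the mutant allele, and do not say whether each library came from its own animal, so the spread between libraries may be technical. Methylation tables hold no expression, and the LSK label was therefore not checked against marker genes.

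Runx1, Gata2, Tal1, Spi1 (which encodes PU.1) and Meis1 encode DNA-binding factors of the blood programme, Cebpa encodes the factor that drives granulocyte and monocyte formation, and Gfi1 and Gfi1b encode a related pair of zinc-finger repressors. CpG-rich promoters of such genes are as a rule kept free of methylation, while the surrounding CpG-poor DNA is mostly methylated, and enhancers often have intermediate levels. Idh1-R132H makes 2-hydroxyglutarate, which can inhibit the TET enzymes that oxidise methylated cytosine. The comparison asked whether methylation at these loci differs between cells with and without the mutation.

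The sequences upstream of the start sites show which promoters this assay can read, since its fragments begin and end at CCGG, the site of the enzyme MspI. RefSeq (build GRCm38.p6) gave 11 start sites for 7 of the 8 genes. CCGG, which reads the same on both strands and contains a CpG, was present in 7 of the 11 stretches of 300 bases around a start, and in 52.8% of all 32851 such stretches in the table. The 250 bases before 5 of these starts are printed 5′ to 3′ with each CpG in capitals. The pair of Runx1 starts and the Gfi1b start show the range from CpG-poor to CpG-dense, and the Gata2 and Gfi1 starts lie near the tiles on which the comparison turned.
Runx1, distal start: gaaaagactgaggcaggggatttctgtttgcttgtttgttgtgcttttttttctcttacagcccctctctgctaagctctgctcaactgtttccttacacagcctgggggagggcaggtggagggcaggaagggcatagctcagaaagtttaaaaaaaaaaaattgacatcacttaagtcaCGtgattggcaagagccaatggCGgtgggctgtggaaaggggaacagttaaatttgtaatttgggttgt
Runx1, proximal start: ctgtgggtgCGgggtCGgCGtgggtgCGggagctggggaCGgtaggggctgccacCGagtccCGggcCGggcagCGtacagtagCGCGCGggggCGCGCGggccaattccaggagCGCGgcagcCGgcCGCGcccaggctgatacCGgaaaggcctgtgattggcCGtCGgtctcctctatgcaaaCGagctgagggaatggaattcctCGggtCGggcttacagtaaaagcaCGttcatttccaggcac
Gata2, downstream start: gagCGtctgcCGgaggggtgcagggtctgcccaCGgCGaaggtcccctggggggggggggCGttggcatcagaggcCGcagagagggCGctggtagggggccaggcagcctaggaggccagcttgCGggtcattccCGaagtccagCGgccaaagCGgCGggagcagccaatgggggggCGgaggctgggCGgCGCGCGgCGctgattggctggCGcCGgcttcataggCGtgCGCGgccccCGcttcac
Gfi1, the start that was placed: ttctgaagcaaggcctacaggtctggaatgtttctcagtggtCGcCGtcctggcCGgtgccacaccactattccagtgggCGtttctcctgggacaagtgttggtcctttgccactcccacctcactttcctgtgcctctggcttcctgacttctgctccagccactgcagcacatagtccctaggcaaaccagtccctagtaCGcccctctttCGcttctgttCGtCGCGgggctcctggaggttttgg
Gfi1b: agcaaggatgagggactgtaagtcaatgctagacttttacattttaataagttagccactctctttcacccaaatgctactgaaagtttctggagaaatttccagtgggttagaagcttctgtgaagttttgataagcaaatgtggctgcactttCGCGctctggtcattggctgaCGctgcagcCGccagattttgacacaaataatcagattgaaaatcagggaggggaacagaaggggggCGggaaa
The distal Runx1 stretch had 2 CpGs in its 300 bases and no CCGG, and the proximal one had 35 CpGs and 4 CCGG sites. The Gfi1b stretch had 7 CpGs, which is the median over all starts, and no CCGG. The downstream Gata2 start had 29 CpGs and the printed Gfi1 start 10.

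Start sites were placed on mm9 by matching the spacing of the CpGs in each RefSeq sequence to the CpG positions in the deposited tables, because no mm9 annotation was used here. A placement needed at least 6 matched CpGs, no listed CpG that the sequence lacked, and at least 2 more matches than the next best place on the chromosome. This placed 7 of the 11 starts, of 6 genes, and these were the 7 that hold a CCGG. They were Cebpa (chromosome 7, 35904312), Gata2 (chromosome 6, upstream start 88143885 and downstream start 88148658), Gfi1 (chromosome 5, 108153363), Meis1 (chromosome 11, 18918972), Runx1 (chromosome 16, proximal start 92697574) and Tal1 (chromosome 4, 114730416). The distal Runx1 start, the other start of Tal1, the other start of Gfi1 and the Gfi1b start could not be placed.

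Depth set what could be compared. Over the shared autosomal positions the median coverage was 60, 25 and 137 reads in knock-in 1, 2 and 3, and 18 and 38 reads in wild-type 1 and 2. The 8 loci had 1181, 595 and 1821 listed positions in the 3 knock-in libraries, against 456 and 1113 for wild type. Knock-in 2 and wild-type 1, the shallowest library of each group, also stood apart on chromosome X, where CpG-dense tiles had a mean level of 24.1% in each of them and between 2.94% and 3.82% in the other 3. The 3 deepest libraries (knock-in 1, knock-in 3 and wild-type 2) are therefore also compared on their own where this changed a result. They shared 882 positions of the 8 loci.

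All 7 placed starts were low in methylation wherever they were read. The Tal1 start had reads only in knock-in 1 and knock-in 3, and was not compared between genotypes. In the 300 bases around a start, the highest mean level in any of the 3 deepest libraries was 5.36%, at Tal1 in knock-in 3, where 3 of 62 reads were methylated (4.84% of reads, 95% Wilson interval 1.66 to 13.3). In knock-in 1 it was 0 of 36 reads there, which allows up to 8.33%. Intervals here cover counting error only. Only 3 of the 7 starts had positions listed in all 5 libraries. At the upstream Gata2 start the mean level over 8 shared positions was 0% in knock-in 1, 1.02% in knock-in 2, 0% in knock-in 3 and 0% in both wild-type libraries. At the downstream Gata2 start, 6 shared positions gave 0% in all libraries except knock-in 3, with 0.0887%. Over each library's own listed positions there, knock-in 1 had 7 of 1366 reads methylated (0.512%, 95% Wilson interval 0.248 to 1.05). Knock-in 2 and 3 had 0 of 256 and 1 of 2289 (interval up to 0.247), and wild-type 1 and 2 had 0 of 426 and 0 of 777 (intervals up to 0.894 and 0.492). At Meis1, 2 shared positions were at 0% in all 5 libraries. The exact permutation test (2-sided) gave p = 1 at each of these 3 starts. With at most 1 library above 0% over the shared positions of each start, this test could not separate the groups.

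Counts of 0 at the other starts had unequal depth. At the Cebpa start, 0 of 226 reads were methylated in knock-in 3, which allows a level of up to 1.33%, and 0 of 39 reads in wild-type 2, which allows up to 7.69%. At the Gfi1 start, 0 of 564 reads were methylated in knock-in 1 and 0 of 360 in knock-in 3, against 1 of 64 in wild-type 2. At the Meis1 start, 0 of 230 reads in knock-in 3 allow up to 1.30% and 0 of 62 in wild-type 2 up to 4.84%. At each of these starts the 95% intervals of the libraries overlapped.

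The proximal Runx1 start was the clearest exception, in knock-in 1, which also had methylated reads at the downstream Gata2 start. In knock-in 1, 62 of 1331 reads around it were methylated, or 4.66% (95% Wilson interval 3.65 to 5.93). Knock-in 3 had 0 of 3747 reads, which allows up to 0.0801%, and knock-in 2 had 0 of 140, which allows up to 2.14%. Wild-type 1 had 0 of 156 reads (up to 1.92%) and wild-type 2 had 0 of 1211 (up to 0.248%). The signal was thus in 1 knock-in library and not in the other 2, one of which was deeper.

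The low region around this start lay between the nearest positions at 50% or more on either side, with the reads of all 5 libraries pooled at each position, so that a single library can exceed 50% inside it. It ran from 2313 bases upstream to 1210 bases downstream. RUNX1 is required for blood stem cells to form, and its proximal promoter lies in a CpG island. Over the listed positions of this region the mean level was 10.3% in knock-in 1 (90 positions), 1.93% in knock-in 2 (22 positions) and 2.37% in knock-in 3 (110 positions), and 1.11% in wild-type 1 (38 positions) and 0.915% in wild-type 2 (95 positions). In knock-in 1, 22 of the 90 positions were at 20% or more, with a maximum of 51.9%. The corresponding counts were 1 of 22 in knock-in 2, 3 of 110 in knock-in 3, 1 of 38 in wild-type 1 and 0 of 95 in wild-type 2. Knock-in 1 was high, and the other 4 libraries lay between 0.915% and 2.37%. All knock-in means lay above both wild-type means, but each library was averaged over its own listed positions, which differ. Positions in this region share reads, so they are not independent measurements.

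**Figure D1:**
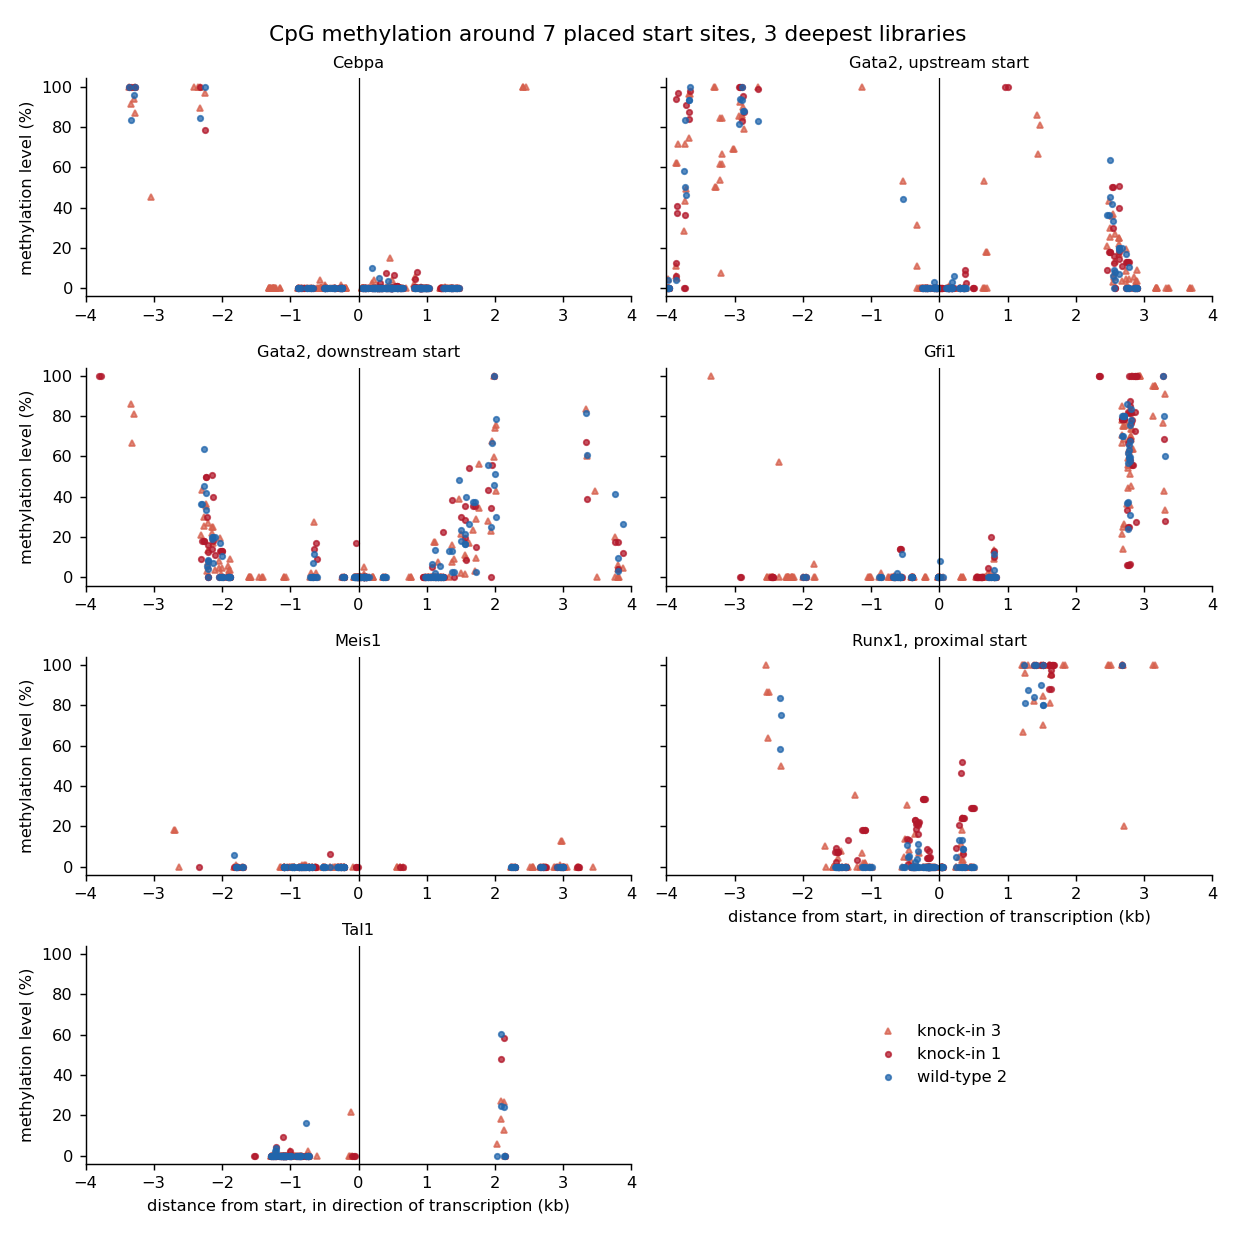
Each point is the methylation level (percent, vertical axis) of 1 CpG position in 1 of the 3 deepest libraries, against its distance from a placed start site in kb, in the direction of transcription. Most positions next to the 7 starts lie near 0% in the libraries that read them, 1 Tal1 position in knock-in 3 lies at 21.4%, and knock-in 1 (dark red circles) rises to 51.9% beside the proximal Runx1 start.

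The width of the low region, bounded by pooled reads in the same way, differed between loci. Around the Cebpa start the nearest positions at 50% or more lay 2254 bases upstream and 2413 bases downstream, with 251 listed positions between them whose mean level was between 0.113% and 0.712% in the 5 libraries. Around the Gfi1 start they lay 2341 and 2338 bases away, and around the upstream Gata2 start only 533 and 652 bases away. Around the Meis1 start no position at 50% or more was listed upstream within the window, and the nearest downstream lay 8597 bases away. Around the Tal1 start the same held upstream, and the nearest one downstream by pooled reads lay 10820 bases away, with 157 positions between. Single libraries exceeded 50% nearer to the Tal1 start, from 2088 bases downstream, with maxima of 58.3% in knock-in 1, 100% in knock-in 2 and 60.5% in wild-type 2. Both bounds of Gfi1, the bound of Meis1 and the downstream bounds of Cebpa and of the upstream Gata2 start were listed in a single library each, on 10 to 15 reads.

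Averaged over shared positions, the knock-in and wild-type libraries overlapped in 6 of the 8 loci, and in Tal1 and Meis1 the knock-in libraries lay lower by less than 1 point. With so few libraries, some loci can separate without any effect of genotype, and the share over windows of other genes was not computed. Tal1 and Meis1 are therefore not set apart by this count. Over all 263 positions the mean level was 15.6%, 17.9% and 15.5% in knock-in 1, 2 and 3, against 14.9% and 15.9% in wild-type 1 and 2. This is 16.3% ± 1.37 (SD, n = 3) against 15.4% ± 0.749 (SD, n = 2), a difference of 0.948 points (exact permutation p = 0.6, 2-sided). Over these 263 positions the groups overlapped. Over all shared autosomal positions they did not, with the knock-in mean higher by 0.692 points (exact permutation p = 0.2, 2-sided). With 3 libraries against 2 there are 10 ways to divide them, and the 2-sided p is 2 times the smaller tail. The smallest p that this test can give, at full separation of the groups, is therefore 0.2, and no locus could have passed 0.05.

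The loci ranked from Gfi1b, the most methylated, to Meis1, the least, over positions that differ in number and place. Gfi1b, over 3 positions of 1 stretch, had 78.5%, 97.0% and 63.1% for knock-in, against 40.0% and 82.3% for wild type. Runx1, over 23 positions, had 54.2%, 57.1% and 58.4% against 58.2% and 54.6%. Its window spans 232 kb and most of its shared positions lie outside the promoter island. Gfi1, over 15 positions, had 10.1%, 33.8% and 24.7% against 10.5% and 24.6%, and Spi1, over 27, had 20.5%, 25.1% and 19.5% against 21.9% and 19.6%. In each of these 4 loci the groups overlapped, and the ranges of Gfi1 and Spi1 overlapped with each other.

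The other 4 loci were lower and tighter. Gata2, over 65 positions, had 15.2%, 15.5% and 11.9% for knock-in, against 12.8% and 13.0% for wild type. Cebpa, over 55 positions, had 8.51%, 8.19% and 7.56% against 6.65% and 7.89%. In both the groups overlapped. Tal1, over 56 positions, had 8.03%, 8.36% and 8.09% against 8.52% and 8.89%, and Meis1, over 19, had 0.466%, 0% and 0.0741% against 1.19% and 0.526%. In Tal1 and Meis1 all knock-in libraries lay below both wild-type libraries, with differences of -0.547 and -0.676 points between the means (exact permutation p = 0.2 for each). Over the positions shared by the 3 deepest libraries both differences turned to the other sign, 0.151 points over 103 positions for Tal1 and 0.134 points over 94 for Meis1.

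**Figure D2:**
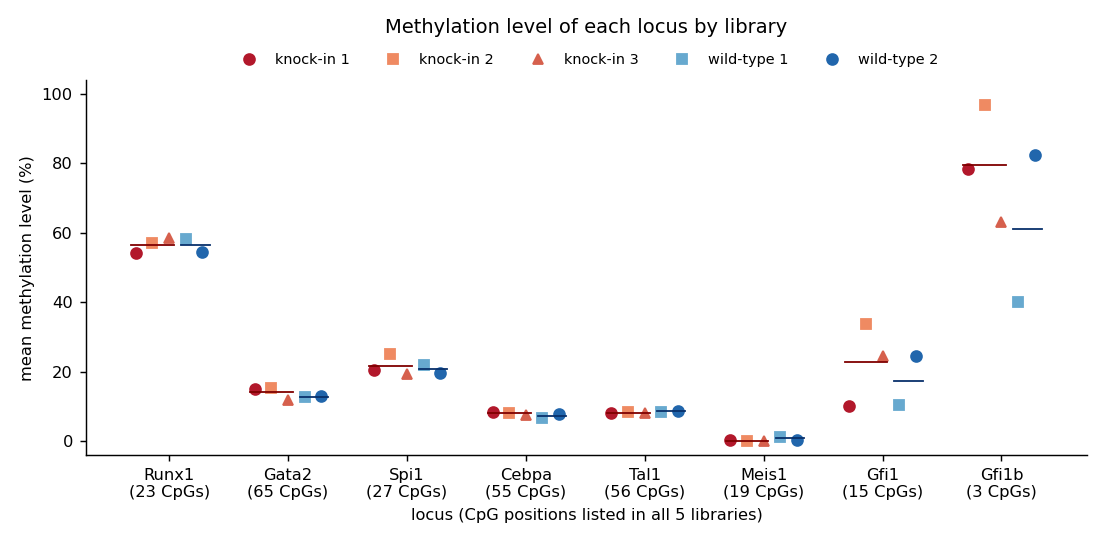
Mean methylation level (percent, vertical axis) of each locus over the CpG positions listed in all 5 libraries, with 1 point per library and a line at each group mean. The libraries of a locus lie close together except at Gfi1 and Gfi1b, where knock-in 2 is highest, at 33.8% and 97.0%, and Gfi1b in wild-type 1 is lowest, at 40.0%.

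The 8 loci were then read in tiles of 1000 bases with at least 3 shared positions, by the share of methylated among all reads of a tile. There were 26 such tiles. Of these, 19 were under 20%, or 73.1%, where 63.5% of the 24319 autosomal tiles were. A mean level of 20 to 80% was found in 4 tiles, or 15.4%, against 6.38% of all tiles, and 3 tiles were at 80% or more. The 4 intermediate tiles were a pair in Gata2 and 1 each in Gfi1 and Gfi1b. They also varied most between libraries, with a median range over the 5 libraries of 39.7 points, against 29.7 points over the 1551 intermediate tiles of the autosomes.

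No tile of the 8 loci passed edgeR's quasi-likelihood test of the groups on methylated and unmethylated reads, adjusted by Benjamini-Hochberg over all 24319 tiles. The percentage called among all tiles was 0, and at an unadjusted p under 0.05 it was 1.59, where the 26 tiles gave 0. limma also called 0 of the 26 at an unadjusted p under 0.05, both on arcsine-transformed levels (3.87% of all tiles) and on log2 ratios (3.96% of all tiles). In 17 of the 26 the knock-in mean was the higher and in 9 it was the lower, against 58.8% and 31.8% of all tiles. The remaining autosomal tiles had equal means, which no tile of the 26 had, so these shares are not directly comparable. The median difference was 0.591 points, against 0.0790 points over all tiles.

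Of the 26 tiles, 1 was separated upward, meaning that its lowest knock-in library exceeded its highest wild-type library and that the group means differed by 10 points or more. This held for 2.37% of all tiles. The reverse held for 0 of the 26 and for 0.621% of all tiles. Without the requirement on size, 2 tiles lay above and 1 below, where 8.98% and 3.61% of all tiles did. These 3 tiles were in Gata2, Tal1 and Gata2, respectively, and are described with their loci.

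**Figure D3:**
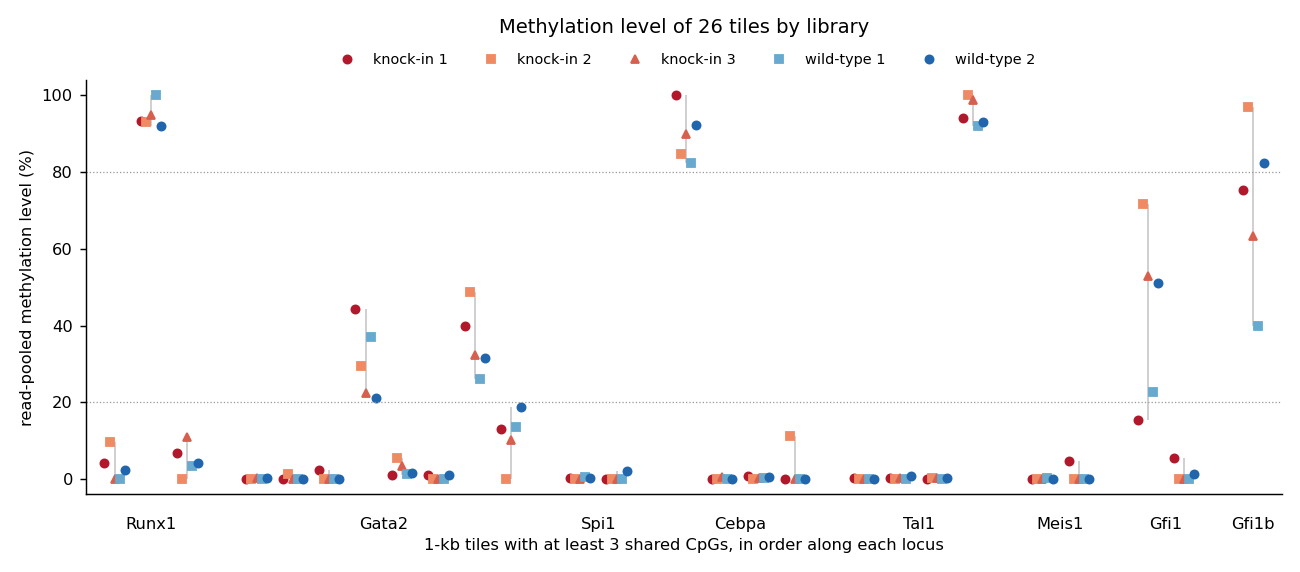
Methylation level over pooled reads (percent, vertical axis) of the 26 tiles with at least 3 shared CpG positions, in order along each locus, with 1 point per library and a grey line over their range. Dotted lines mark 20% and 80%. In the 19 tiles under 20% on average the libraries lie within 18.8 points of each other, and the 4 intermediate tiles, in Gata2, Gfi1 and Gfi1b, spread furthest.

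Gata2 held the one tile that met the criterion of separation. GATA2 maintains the stem cell pool, and loss of 1 copy predisposes to marrow failure and leukaemia. The tile (chr6:88150000-88150999) lay 1.4 to 2.0 kb downstream of the downstream start, whose upstream sequence is printed above. Its level was 40.0%, 48.6% and 32.2% in knock-in 1, 2 and 3, against 26.1% and 31.6% in wild-type 1 and 2, or 40.3% ± 8.22 (SD, n = 3) against 28.9% ± 3.88 (SD, n = 2). The difference was 11.4 points (edgeR adjusted p = 1). The groups did not overlap, but knock-in 3 and wild-type 2 were nearly equal. Without knock-in 2 the difference was 7.22 points. When each CpG was given equal weight, the difference was 5.05 points and the groups overlapped, with 31.9% in knock-in 3 and 37.8% in wild-type 2.

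Single CpGs of this Gata2 tile did not share 1 direction. The widest difference between group means, 40.5 points, was at 88150224 on the minus strand. The level there was 35.5%, 100% and 10.9% for knock-in, against 0% and 16.7% for wild type, with the groups overlapping. The knock-in 2 value rested on 10 reads. Differences at the shared positions not detailed here were 12.8 points (88150593), 6.95 (88150386), 4.09 (88150216) and -1.59 (88150637). At position 88150613, on the plus strand, the level was 55.6%, 100% and 67.6% for knock-in, against 48.0% and 66.7% for wild type, with the groups overlapping. At position 88150358, on the minus strand, it was 35.5%, 0% and 3.31% for knock-in, against 46.2% and 37.1% for wild type, so that all knock-in libraries lay below. The knock-in 2 value there rests on 14 reads. The position 15 bases before it, 88150343, also had all knock-in libraries below, at 35.3%, 28.6% and 23.3% against 42.3% and 37.1%.

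Gata2 had 2 further tiles with more than 10% methylation in at least 1 library among those with 3 shared positions. The tile at chr6:88146000-88146999, which lies 1.9 to 2.3 kb upstream of the downstream start, had 44.4%, 29.3% and 22.4% for knock-in, against 37.1% and 21.1% for wild type. The groups overlapped, and the difference of 2.96 points became -3.23 without knock-in 1 and -5.05 without wild-type 2. The tile at chr6:88152000-88152999, 3.3 to 3.9 kb downstream of that start, was the one tile with all knock-in libraries below. It had 13.1%, 0% and 10.0% against 13.6% and 18.8%, a difference of -8.49 points, with 48 reads in knock-in 2 and 44 in wild-type 1.

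The other Gata2 tiles of the 26 were low, at 5.42% or less in every library. The tile at chr6:88139000-88139999, 4.0 to 4.5 kb upstream of the upstream start, had 44 listed positions and levels of 0%, 0% and 0.312% for knock-in, against 0% and 0.341% for wild type. The next tile (chr6:88140000-88140999), over the 12 positions that the 3 deepest libraries share, was methylated, at 79.1% in knock-in 1, 71.8% in knock-in 3 and 78.8% in wild-type 2. The Gata2 tile with the smallest edgeR p (chr6:88144000-88144999) had 2.38% in knock-in 1 and 0% in the other 4 libraries. Within the Gata2 window also lies the start of Gm38708, a predicted gene on the opposite strand, placed at 88147903 with 2 shared positions. Its level there was 7.03%, 68.3% and 13.7% for knock-in, against 12.5% and 5.71% for wild type, so knock-in 2 alone was high (exact permutation p = 0.4).

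Gfi1 and Gfi1b held the widest spread between libraries of the same genotype. GFI1 restrains proliferation of blood stem cells and is needed for neutrophils, and GFI1B acts in red cells and platelets. The Gfi1 tile (chr5:108150000-108150999) lay 2.7 to 3.3 kb downstream of the placed start and was CpG-dense, with 63 listed positions. Its shared level was 15.5%, 71.6% and 53.0% in knock-in 1, 2 and 3, against 22.7% and 51.0% in wild-type 1 and 2. The libraries covered a range of 56.1 points, the groups overlapped, and the difference of 9.83 points (edgeR adjusted p = 1) became -2.62 without knock-in 2 and -4.33 without wild-type 1. Among the 11229 CpG-dense tiles of the autosomes, those with at least 30 listed positions, 1.74% were intermediate. Of the 15 such tiles in the 8 loci, 2 were intermediate (13.3%), this one and 1 in Gata2.

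The 7 shared positions behind the Gfi1 value were all on the minus strand, within 46 bases. In knock-in 1 they had 15 or 16 reads each and levels of 6.25% to 33.3%. The same library had 48 reads at the plus-strand cytosine of the CpG at 108150580 and a level of 100%, against 6.25% on the minus strand. Over the 12 plus-strand positions that the 3 deepest libraries share in this tile, the mean level was 76.6% in knock-in 1, 59.4% in knock-in 3 and 69.0% in wild-type 2, and over the 8 minus-strand positions it was 24.5%, 52.3% and 51.8%. Knock-in 1 was therefore the highest of the 3 on 1 strand and the lowest on the other. In wild-type 1, each shared position had 13 or 14 reads and was at either 0% or 78.6%, so that several neighbouring positions had the same level.

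**Figure D4:**
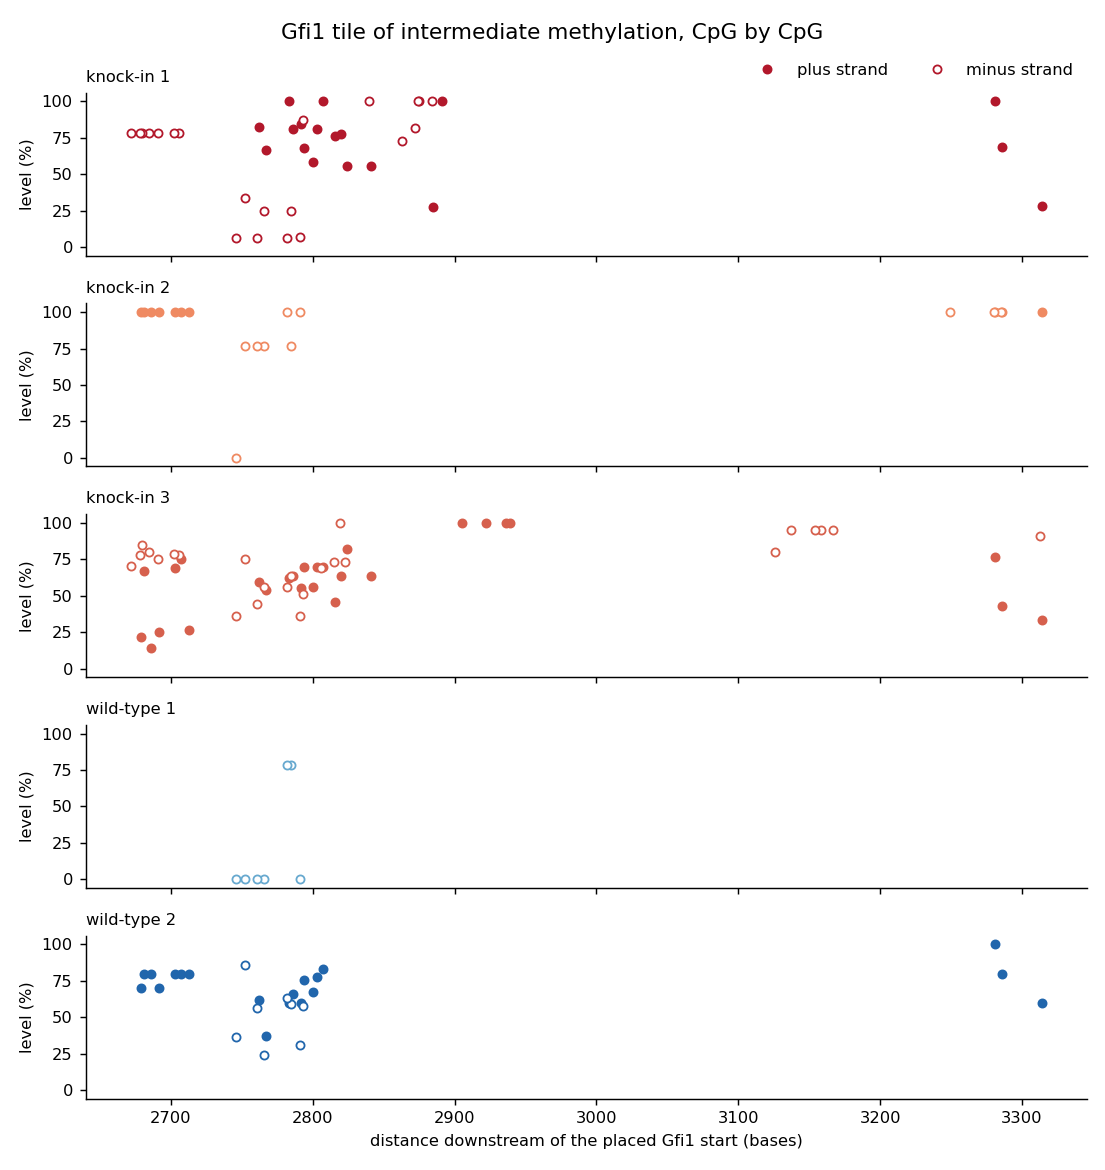
Methylation level (percent, vertical axis) of each CpG position in the intermediate Gfi1 tile against its distance in bases downstream of the placed start, 1 panel per library, with filled points for the plus strand and open points for the minus strand. In knock-in 1 the open points of the 7 shared positions lie at 33.3% or less while the filled points beside them lie above 50%, and wild-type 1 has only 7 points.

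The single Gfi1b tile (chr2:28476000-28476999) had 75.3%, 96.9% and 63.2% for knock-in, against 40.0% and 82.4% for wild type, a difference of 17.3 points (edgeR adjusted p = 1). The groups overlapped, and without wild-type 1, which had 15 reads at each of its 3 positions, the difference was -3.86 points. At each of those 3 positions wild-type 1 was at 40.0%. The Gfi1b window had 36 listed positions in 22 kb, the fewest of the 8 loci.

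Runx1 was low at its proximal promoter, with the knock-in 1 values given above, and its other tiles ranged from low to highly methylated. The tile at chr16:92680000-92680999, 17.2 to 17.5 kb downstream of the proximal start, had 93.3%, 93.0% and 94.9% for knock-in, against 100% and 91.9% for wild type. The tile with the widest difference, 3.46 points (chr16:92644000-92644999), had 4.05%, 9.71% and 0% against 0% and 2.26%. The groups overlapped in both. The latter value covers 3 of the tile's 17 listed positions, and others in it were methylated, such as 92644584 on the plus strand with 100% in knock-in 1 and 3 and 87.5% in wild-type 2. The tile just upstream of the proximal start (chr16:92698000-92698999) had 6.78%, 0% and 10.9% against 3.25% and 4.06%.

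Far upstream of the proximal Runx1 start lay further positions without methylation, read at low depth. In chr16:92801000-92802999, 103.8 to 105.0 kb upstream, 0 of 10, 0 of 50 and 1 of 207 reads were methylated in knock-in 1, 2 and 3, and 0 of 38 and 0 of 30 in wild-type 1 and 2. In chr16:92822000-92823999 and chr16:92825000-92826999, only knock-in 3 had more than 20 reads, with 0 of 48 and 0 of 50 methylated. Both genotypes were at or near 0% in the first of these regions, and the other two could not be compared.

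**Figure D5:**
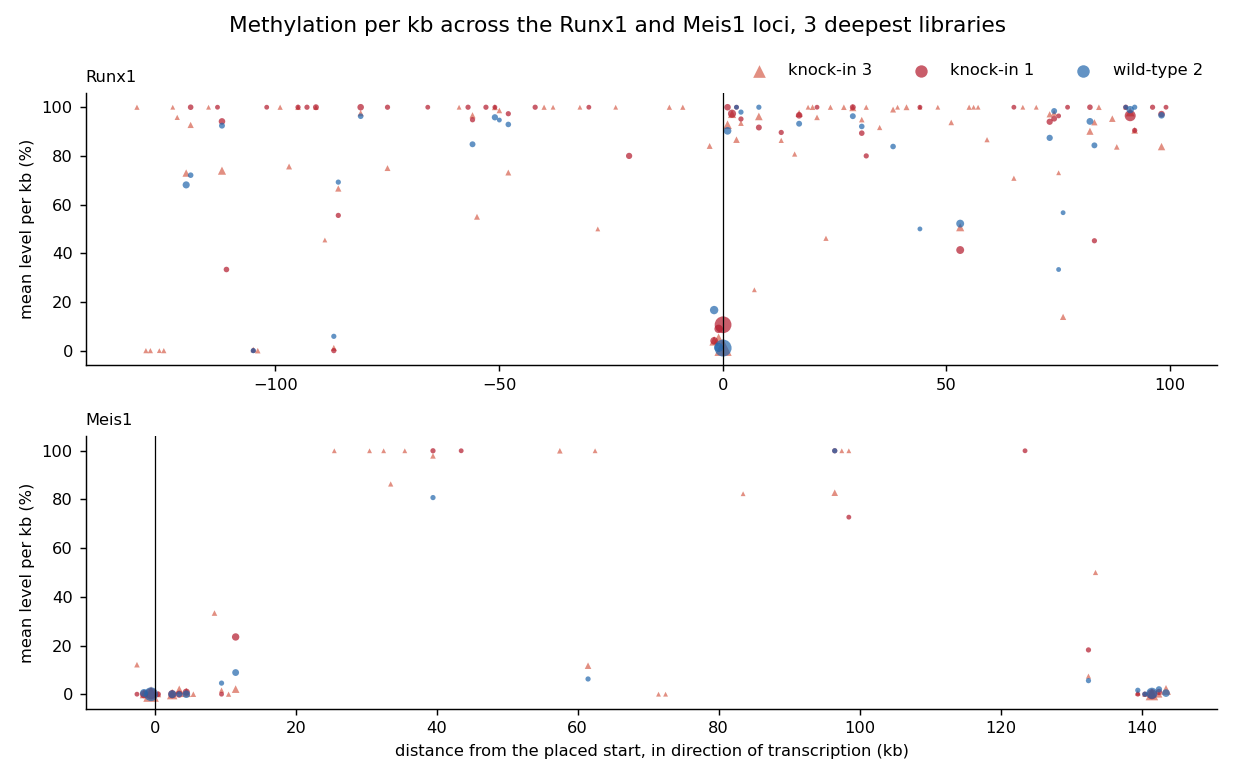
Mean methylation level per kb (percent, vertical axis) across the Runx1 and Meis1 windows against the distance from the placed start in kb, in the direction of transcription, for the 3 deepest libraries, with larger symbols for more CpG positions. Both starts lie in low regions, Runx1 is low again more than 100 kb upstream, and Meis1 is low again at several places downstream, among them about 141 kb.

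Meis1 is a homeobox gene that sustains stem cells and, when overexpressed, leukaemia. Over its 19 shared positions it was the least methylated of the 8 loci. These lay only in low tiles at its start and in chr11:18775000-18779999, so the rank does not describe the whole 150-kb window. Over the 94 positions shared by the 3 deepest libraries it was again the lowest. Its level there was 4.95%, 4.97% and 4.83% in knock-in 1, knock-in 3 and wild-type 2. Besides its start it had a second run of low tiles, chr11:18775000-18779999, at 139.8 to 143.8 kb downstream of the start. There 68 positions were listed, and the share of methylated reads was 0.191%, 0% and 0.704% for knock-in, against 0.253% and 0.430% for wild type, over the positions shared by all 5 libraries or, in tiles with fewer than 3 of these, by the 3 deepest or as listed. At 1 position in it, 18776565, the level was 2.86%, 0% and 0% for knock-in, against 15.4% and 10.0% for wild type, the latter on 13 and 10 reads. The Meis1 tile with the widest difference, 1.52 points (chr11:18919000-18919999), had 4.55% in knock-in 1 and 0% in the other 4 libraries.

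Tal1, which encodes a helix-loop-helix factor needed to specify blood, had 3 low tiles and 1 methylated tile among the 26. The methylated tile (chr4:114741000-114741999), 10.8 to 10.9 kb downstream of the placed start, was the second tile with all knock-in libraries above. It had 94.2%, 100% and 98.9% for knock-in, against 91.9% and 93.1% for wild type, a difference of 5.18 points (edgeR adjusted p = 1), and stayed between 4.03 and 6.91 points when each library was left out. The tile at chr4:114736000-114736999, 5.6 to 6.0 kb downstream, had levels of at most 0.295% in every library.

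Spi1 is the locus without a RefSeq sequence in the table, and its start was not placed. PU.1 directs myeloid and B cell fates at different doses. Its 2 tiles among the 26 were low. The tile at chr2:90937000-90937999 gave the smallest edgeR p of the 26 (adjusted p = 1). It had 0 of 200, 0 of 113 and 0 of 621 methylated reads in knock-in 1, 2 and 3, 0 of 117 in wild-type 1 and 4 of 194 in wild-type 2. The difference of -1.03 points thus rested on wild-type 2, without which it was 0. The CpG-dense tile at chr2:90910000-90910999, in which the starts of the neighbours Slc39a13 and Gm39874 were placed, had 70 listed positions and at most 0.392% in any library.

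Cebpa was low on either side of its start. The tile at chr7:35904000-35904999, with 38 shared positions the best covered of the 26, had 0.666%, 0% and 0.219% for knock-in, against 0.109% and 0.376% for wild type. The tile downstream of it (chr7:35905000-35905999) had 11.3% in knock-in 2, 14 of 124 reads, and 0% in the other 4 libraries. The tile with the widest difference, 4.23 points (chr7:35901000-35901999), lay 2.3 to 3.3 kb upstream of the start and was methylated, at 100%, 84.6% and 90.1% against 82.4% and 92.3%, with the groups overlapping. Without wild-type 1 its difference was -0.749 points. Another low stretch, chr7:35941000-35941999, lay 37.3 to 37.4 kb downstream, with 0 of 172, 0 of 337 and 0 of 117 methylated reads in knock-in 1, knock-in 3 and wild-type 2.

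Tested position by position, 0 of the 263 shared positions of the 8 loci passed edgeR after adjustment over all 280635 positions, where 0.000356% did. At an unadjusted p under 0.05 it was 1 position, or 0.38%, against 0.266% of all positions. This position lay in the Runx1 window, at 92748024 on chromosome 16, between 50.4 and 50.6 kb upstream of the proximal start, and was named because it was the 1 called, after its values were seen. It was at 100% in all 3 knock-in libraries, on 87, 10 and 68 reads, and at 38.5% in wild-type 1, on 13 reads, and 86.2% in wild-type 2, on 29 reads (edgeR adjusted p = 1). All knock-in libraries were higher, and wild-type 1 lay furthest from them.

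By limma on arcsine-transformed levels, 4 of the 263 positions had an unadjusted p under 0.05, or 1.52%, against 1.34% of all positions, and 0 passed after adjustment, against 0.042%. The 4 were this Runx1 position, the Meis1 position given above, Spi1 at 90958354 (100%, 100% and 99.4% against 94.1% and 97.3%) and Tal1 at 114747052 (76.2%, 63.6% and 75.4% against 100% and 88.2%). Irrespective of size, the groups did not overlap at 9 positions, 5 with the knock-in above and 4 with it below, where 2.38% and 0.987% of all positions did. With group means at least 10 points apart it was 4 above and 4 below, where 2.02% and 0.76% of all positions did. Beside those named, the positions with the knock-in above, also listed after their values were seen, were Gata2 at 88154726, Gfi1 at 108150597 and Cebpa at 35914057. The last had between 36.6% and 69.5% in the knock-in libraries, against 11.1% and 35.6%. In each of these 3, and at the Runx1 position, wild-type 1 was the lowest library, with 11 to 18 reads.

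Both strands of a CpG give 2 readings of the same site within a library, on separate reads, and the strands can also differ in the cells themselves. Error and such a difference were not told apart. Across the 8 loci the strands of a CpG differed by a median of 0 points in every library, over 124, 49 and 273 CpGs for knock-in, against 24 and 157 for wild type. They lay within 10 points of each other at 76.6%, 87.8% and 81.7% of these CpGs for knock-in, against 87.5% and 83.4% for wild type. Where the mean of the strands was 20 to 80%, however, the median difference was 56.2, 51.3 and 43.0 points for knock-in, against 59.6 and 35.2 points for wild type. This group was chosen by the mean of the strands, which a CpG at 0% on 1 strand and 100% on the other also meets. Of the 4 intermediate tiles, 4 held a CpG whose strands differed by more than 50 points in at least 1 library, and of the 19 low tiles 1 did, the Runx1 tile at 92644000.

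Such CpGs repeated between libraries. There were 29 with strands more than 50 points apart in at least 1 library and 9 in at least 2 libraries, of which 8 formed 4 pairs, 46 to 49 bases apart, in Cebpa, Runx1 (2 pairs) and Spi1. In each pair the left CpG was high on the plus and low on the minus strand and the right CpG the reverse. In the Cebpa pair, 32.5 to 32.6 kb downstream of the start, the left CpG (35936862) was at 100%, 100% and 68.8% on the plus strand in knock-in 1, knock-in 3 and wild-type 2 and at 0% on the minus strand in all 3. The right CpG (35936909) was at 0% on the plus and 100% on the minus strand in all 3. The pairs occurred in both genotypes, and their cause was not tested.

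A list of 24 other blood transcription factors was read in the same way, as counts only. RefSeq sequences were present for 19 of them, and 12 starts of 11 genes could be placed. All 12 were under 20% wherever the 3 deepest libraries read them. The highest level over the positions that these 3 share was 11.4%, at Pax5, a B cell factor, in knock-in 3. Of these starts 5 had shared positions, and the difference between the groups was at most 1.21 points in size. This was at Ikzf1, which encodes a lymphoid zinc-finger factor. It rested on 1 shared position, with 3.64% in knock-in 1 and 0% in the other libraries.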

How the data were processed

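Extended reduced representation bisulfite sequencing gave 3 knock-in and 2 wild-type libraries. Per the labels' protocols, DNA was cut with MspI, end-repaired, ligated to methylated adapters, size-selected and treated with bisulfite. Cytosines filled in at fragment ends carry no native methylation, and the sources used here do not say whether they were trimmed. Per the submitters' processing notes, CASAVA 1.7, Bismark (no version given) and mm9 were used. The deposited tables give a coverage count and the percent of C and of T at each CpG position with at least 10 reads. Methylated and unmethylated reads were recovered as coverage times these percentages.

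Positions were joined over libraries on chromosome, base and strand. A level is 100 times methylated reads over the sum of methylated and unmethylated reads. Loci and starts were averaged over CpG positions, and tiles of 1000 bases, with at least 3 shared positions, were taken over pooled reads. Tests were an exact 2-sided permutation test for single values, and edgeR 4.0.16 (quasi-likelihood, library terms and 3 residual degrees of freedom) over all autosomal tiles or positions, with limma 3.58.1 as the alternative. Over positions, limma reported that most residual variances were 0, which makes its p-values there unreliable. The edgeR and limma tests were tested on simulated data. No recovery rate is given here, so the absence of calls does not bound the size of a difference. Software versions were matplotlib 3.10.9, scipy 1.17.1, pandas 2.3.3, numpy 2.4.6, Python 3.11.15 and R 4.3.3.

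The members, the lists and the tests were chosen with earlier results of these data known. The tiles named per locus are the one with the widest difference, the one with the smallest edgeR p, every tile of 20 to 80% and every separated tile, besides the low runs. Alternatives were read weighting, a coverage of at least 20, other tile minimums, the 3 deepest libraries, leaving out the 0.1% of positions with the highest coverage, and leaving out each library. Intervals and limits for 0 (3 reads of the total) cover counting error only, since the reads carry no molecular identifiers and may be copies of 1 molecule.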

Additional observations from a re-analysis of the deposited data

How the results depend on the processing

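No paired analysis was possible because the labels number no replicates that the knock-in and wild-type groups share, and no test of a locus could pass its threshold under any alternative. Cebpa was the locus whose difference kept its sign under all alternatives run. Leaving out 1 library gave, for Runx1, -1.67 to 1.92 points; for Gata2, 0.648 to 2.42; for Spi1, -0.738 to 2.12; for Cebpa, 0.198 to 1.44; for Tal1, -0.732 to -0.363; for Meis1, -1.01 to -0.346; for Gfi1, -1.68 to 12.4; and for Gfi1b, -2.78 to 39.5. Over positions shared by the 3 deepest libraries the sign turned in Gata2 (-0.787), Tal1 (0.151), Meis1 (0.134) and Gfi1 (-1.64). Weighting by reads turned it in Gfi1 (-1.66), and a coverage of at least 20 in Tal1 (0.953). Within the chromosome X class of knock-in 2 and wild-type 1 it turned in Runx1 (-1.15), and within the other class in Gfi1 (-7.17) and Gfi1b (-11.5). The cause was not tested. Tiles and positions of the 8 loci had 0 adjusted edgeR calls under every alternative. The count of separated tiles with the knock-in higher, 1, became 2 with any size of difference, 4 with 1 shared position per tile (47 tiles), 0 with a coverage of at least 20 (11 tiles) and 0 with equal weight per CpG, an alternative chosen after seeing the data; leaving out 1 library gave 0 to 2. The count with the knock-in lower, 0, became 1 with any size and 2 with 1 shared position per tile, and 0 to 1 with 1 library left out. Among named tiles, leaving out 1 library turned the sign in 4, with ranges of -3.86 to 38.5 in Gfi1b, -4.33 to 25.4 in Gfi1, -5.05 to 11.0 in Gata2 (chr6:88146000-88146999) and -0.749 to 9.21 in Cebpa (chr7:35901000-35901999).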
